A study of Rattus norvegicus with 10 samples.

Results

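Pituicytes are the glial cells of the neural lobe of the pituitary, and 9 transcription factors known from pituicytes, astroglia or the floor of the hypothalamus from which the neural lobe grows were followed here: Lhx2, Rax, Nkx2-1, Sox2, Sox9, Hes1, Six3, Six6 and Tbx3. Members were all probe sets whose platform annotation gave exactly 1 gene symbol equal to one of these names. That rule found 15 of the 31099 probe sets on the array, and they stood for 8 of the 9 genes; Sox9 is not analysed here. RNA came from the neurointermediate lobe of male Sprague Dawley rats of 10 to 12 weeks, either deprived of water for 3 days or kept as controls. Each group had 5 Affymetrix Rat Genome 230 2.0 arrays, and each array carried 1 pool of 5 animals. Arrays are numbered 1 to 5 within each group in sample order; the labels give no such number. The tissue is taken from the title and the sample labels; the design text of the series gives the supraoptic nucleus instead. This dissection holds the neural lobe, with the axon endings of vasopressin and oxytocin neurons among pituicytes, and the intermediate lobe, made mostly of melanotrophs.

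The neural lobe forms as an outgrowth of the ventral diencephalon, the infundibulum, while the intermediate and anterior lobes come from oral ectoderm. In mouse development Lhx2, Rax, Nkx2-1 and Tbx3 are needed for a normal infundibulum, and Hes1, an effector of Notch signalling, keeps progenitors from differentiating early. Sox2 and Sox9 mark progenitors and glia, and also the stem and folliculostellate cells of the other pituitary lobes, so that they are not particular to pituicytes. Six3 and Six6 are paralogous factors of the developing hypothalamus, eye and pituitary.

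All 10 arrays as deposited had a mean of about 100 after trimming and were taken as already scaled, and signals below are on that linear scale. Of 31042 probe sets that are not hybridisation controls, the 18625 brightest were tested, among them 11 of the 15 member probe sets. Over all of these, 458 (2.46%) passed an adjusted p of 0.05 in limma with Benjamini-Hochberg adjustment, and that count was 218 without dehydrated 3, 1156 without dehydrated 5 and 1398 without dehydrated 5 and control 1 together. The labelled tissue was checked by its markers: Gfap of astroglia gave 52.0 to 521.5 and Pomc of melanotrophs 491.3 to 1090 over the arrays, while the astroglial genes Slc1a2 and Aldh1l1 were too dim to be tested. Hormone genes of the anterior lobe, which the labels do not name, were bright as well. Gh1 gave 745.9 to 3336.4 and Prl 551.6 to 2865.5 over the arrays. RNA integrity was read from the 3' to 5' signal ratio of 2 control transcripts, whose log2 mean was 2.15 ± 0.38 with dehydration and 1.78 ± 0.48 without (SD, n = 5; p = 0.214 in an exact two-sided permutation test, which cannot go below 0.00794). No label says that arrays were processed in batches. The numbers in the sample titles run in 1 block per group, so that any effect of array order cannot be told apart from the group difference. The p-values measure the spread between pools.

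Of the 11 member probe sets tested, 1 passed, that of Lhx2, which was higher in the dehydrated group, where 1.68% of all tested probe sets passed in that direction. The other 10 did not pass. At an unadjusted p under 0.05 there were 4 of 11, those of Lhx2, both of Rax and 1 of Tbx3, beside 17.4% of all tested probe sets. The median log2 change over the 11 was 0.077, beside -0.01 over all tested probe sets, and 7 of the 11 changes were positive, beside 47.4% of all tested probe sets. Lhx2 rose, while the changes of both Rax probe sets, of Six3 and of Sox2 1381874_at were negative and did not pass.

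**Figure D1:**
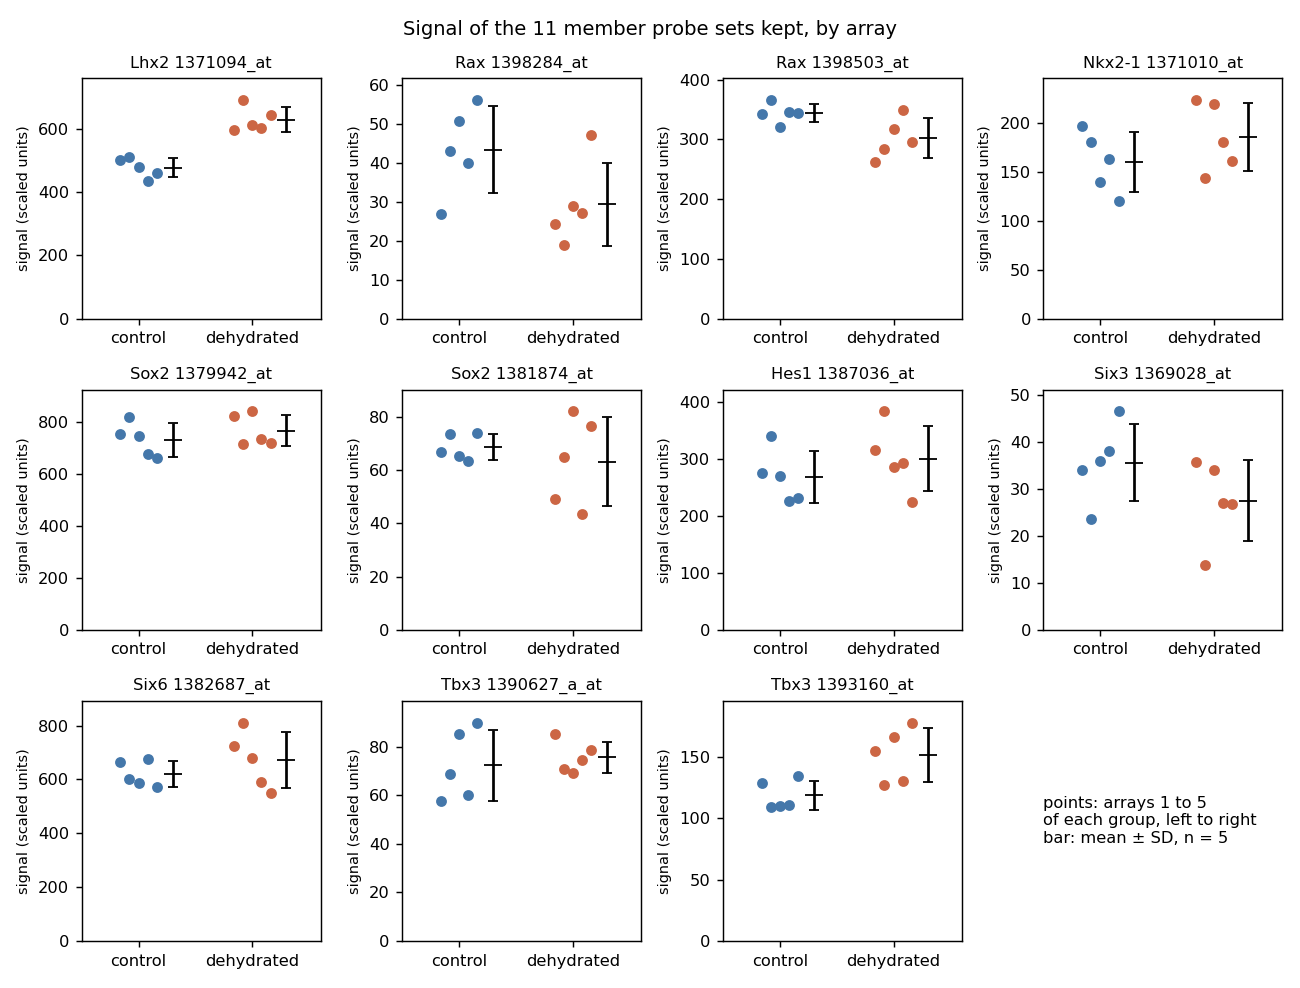
Signal of the 11 tested member probe sets on each array, in scaled units as deposited, on linear axes from 0. Points are the 5 control (blue) and 5 dehydrated (orange) arrays, and bars are mean ± SD (n = 5). For Lhx2 the dehydrated arrays lie between 595.9 and 689.8 and the control arrays between 434.0 and 509.1, whereas the groups overlap in the other 10 panels.

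Lhx2 encodes a LIM homeodomain factor that pituicytes keep expressing in the adult neural lobe (Entrez Gene 296706, probe set 1371094_at). Its signal was 595.9, 689.8, 610.6, 601.1 and 642.7 on the dehydrated arrays 1 to 5 and 502.3, 509.1, 479.7, 434.0 and 459.8 on the control arrays 1 to 5. Every dehydrated array was above every control array, which held for 4.59% of all tested probe sets in either direction and 2.78% in this one. The group means were 628 ± 39.0 and 477 ± 30.9 (SD, n = 5), a coefficient of variation of 6.21% and 6.48%. Lhx2 rose 1.31-fold (log2 change 0.39 ± 0.071 SE, 95% interval 0.24 to 0.54, limma adjusted p = 0.00564). A change of at least this size was seen in 7.41% of tested probe sets. Its call held under all 22 alternatives tried, with log2 changes of 0.36 to 0.43 and adjusted p of 0.00393 to 0.0400; the highest p came from the model without an intensity trend.

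**Figure D2:**
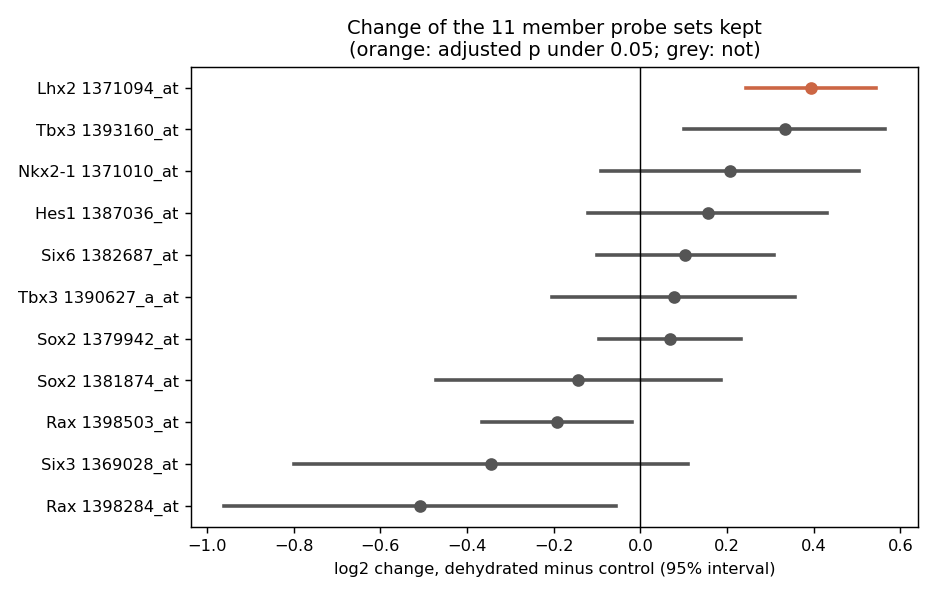
Log2 change, dehydrated minus control, of the 11 tested member probe sets with its 95% interval from limma (n = 5 per group). The interval of Lhx2 (orange, 0.24 to 0.54) lies above 0 with an adjusted p under 0.05; the intervals of Tbx3 1393160_at and of both Rax probe sets also exclude 0, but these did not pass after adjustment over all probe sets (grey).

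Because the tissue is a mixture, more RNA per cell and more cells of a type cannot be told apart. In some marker lists of other cell types the summed signal, which the brightest genes carry, did not overlap between the groups, although most of their genes did not pass. The summed signal of 3 tested markers of Schwann cells and oligodendrocytes (of 11 listed) was 1248 to 1370 with dehydration and 980.0 to 1134 without. For 10 of 13 endothelial and pericyte markers the sums were 1527 to 1906 and 1045 to 1363, and for 11 of 11 fibroblast and meningeal markers 10464 to 12991 and 7684 to 8485. Of all 10593 genes read by 1 probe set each, 2.31% passed as higher and 0.878% as lower. In limma 1 of the 3, 4 of the 10 and 4 of the 11 passed, all higher: Pmp22, then Flt1, Kdr, Emcn and Rgs5, then Dcn, Lum, Postn and Mgp. Others of these lists had negative changes that did not pass, among them Mbp (-0.03), Tie1 (-0.26), Col1a2 (-0.17), Ogn (-0.15) and Igf2 (-0.37). The sums of 6 of 7 melanotroph markers were lower, 4549 to 5291 with dehydration and 5500 to 6274 without, yet only the prohormone convertase gene Pcsk2 passed (-0.88, adjusted p = 0.00219). The changes of Oacyl, Scg2, Pomc, Drd2 and Tbx19 were -0.54, -0.30, -0.093, -0.085 and -0.0085, and none of these passed. For 8 of 10 astroglia and pituicyte markers the sums were 5624 to 6440 and 5126 to 5747, and for 7 of 9 stem and folliculostellate markers 2247 to 2587 and 2572 to 2980, overlapping in both lists. Sums overlapped as well for 6 of 8 anterior lobe markers (4824 to 9379 and 2574 to 7950) and for 10 of 12 macrophage and microglia markers (2726 to 3709 and 2979 to 3804). Single genes passed in the lists with overlapping sums too. Gfap and Slc1a3 were higher among astroglial markers, and Cd14 (0.95) and Aif1 (0.42) among macrophage markers. Krt8 of the stem and folliculostellate list (-0.48) and Fshb of the anterior lobe list (-0.86) were lower (limma adjusted p no higher than 0.0375). The other tested genes of these lists did not pass. For 7 of 10 markers of hypothalamic tissue and tanycytes the sums were 3803 to 4501 with dehydration and 3400 to 3465 without. Gad1, Gad2 and Slc17a6 of this list were too dim to be tested. Only Crym, the gene of a thyroid hormone-binding protein, passed, with a rise of 0.92. The changes of Snap25, Col25a1, Rbfox3, Rfx4, Syt1 and Nefl were 0.21, 0.13, 0.017, 0.013, -0.014 and -0.21, and none of these passed. None of the tested markers in all these lists was at 0 on any array. Their part in the change of Lhx2 was not tested.

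By signal over the 10 arrays, the genes most like Lhx2 were Bgn, the matrix proteoglycan biglycan (Pearson r = 0.98), the secreted protease gene Htra1 (r = 0.97), the glucocorticoid-regenerating enzyme gene Hsd11b1 (r = 0.95), the mitochondrial ribosome gene Mrpl48 (r = 0.94) and Swap70, a signalling adaptor (r = 0.94). These values describe 10 arrays that share the group difference and the scaling, and 46 of 10592 genes had r above 0.9. With each group's mean taken off, r was 0.87 for Bgn, 0.86 for Htra1, 0.74 for Swap70, 0.63 for Mrpl48 and 0.58 for Hsd11b1. All 5 were higher in the dehydrated group, by 0.49, 0.57, 0.36, 0.53 and 1.26 on the log2 scale for Bgn, Htra1, Swap70, Mrpl48 and Hsd11b1 (limma adjusted p no higher than 0.0335). Swap70 no longer passed when dehydrated 1, 2 or 4 or control 1, 3, 4 or 5 was left out, in the model with no intensity trend, and in that with the integrity ratio as covariate (adjusted p up to 0.0937).

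The sequence before the start of Lhx2 is shown because it is the member that passed. It is the RefSeq window of 250 bases upstream, assembly GRCr8, chr3:42535494-42535743, plus strand, with matches to the GC box GGGCGG, the letters bound by SP1-type zinc finger factors, in capitals on either strand.
Lhx2: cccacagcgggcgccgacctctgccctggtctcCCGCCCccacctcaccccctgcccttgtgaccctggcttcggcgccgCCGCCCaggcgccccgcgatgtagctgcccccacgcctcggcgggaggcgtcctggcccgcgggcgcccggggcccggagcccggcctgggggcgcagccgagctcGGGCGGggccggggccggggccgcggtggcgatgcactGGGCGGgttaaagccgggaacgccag
Its G and C content was 80.8%, higher than in 99.1% of such windows, whose median was 51.2%. The window held 4 GC boxes, none overlapping another; 30.5% of 33469 RefSeq windows of this length held at least 1 and 3.67% at least 4. These shares are over windows of any G and C content, and no comparison was made with windows as rich in G and C. RefSeq windows were matched for 7 of the 9 factors. The homeodomain core TAATTA and the SOX core ACAAAG, searched on both strands, had no match in the 7 windows, and 4.86% and 16.3% of all windows held them.

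Rax, a paired-like homeodomain factor of the eye field, hypothalamus and tanycytes (Entrez Gene 114213), was read by 2 tested probe sets. The brighter, 1398503_at, gave 261.5, 284.5, 317.6, 349.0 and 295.8 on the dehydrated and 341.7, 365.3, 321.4, 346.5 and 344.8 on the control arrays 1 to 5. On 4 dehydrated arrays it was below the lowest control array, and dehydrated 4 lay among the controls. The log2 change was -0.19 ± 0.082 SE (95% interval -0.37 to -0.018, adjusted p = 0.241). The dim probe set, 1398284_at, gave 24.3, 19.0, 29.0, 27.2 and 47.1 on the dehydrated and 26.8, 43.0, 50.7, 40 and 56.0 on the control arrays. Here dehydrated 5 lay among the controls, and control 1 lay among the dehydrated arrays. The log2 change was -0.51 ± 0.21 SE (95% interval -0.96 to -0.056, adjusted p = 0.233). Neither probe set passed. With group means taken off, the 2 Rax probe sets correlated at r = 0.096 over 10 arrays.

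**Figure D3:**
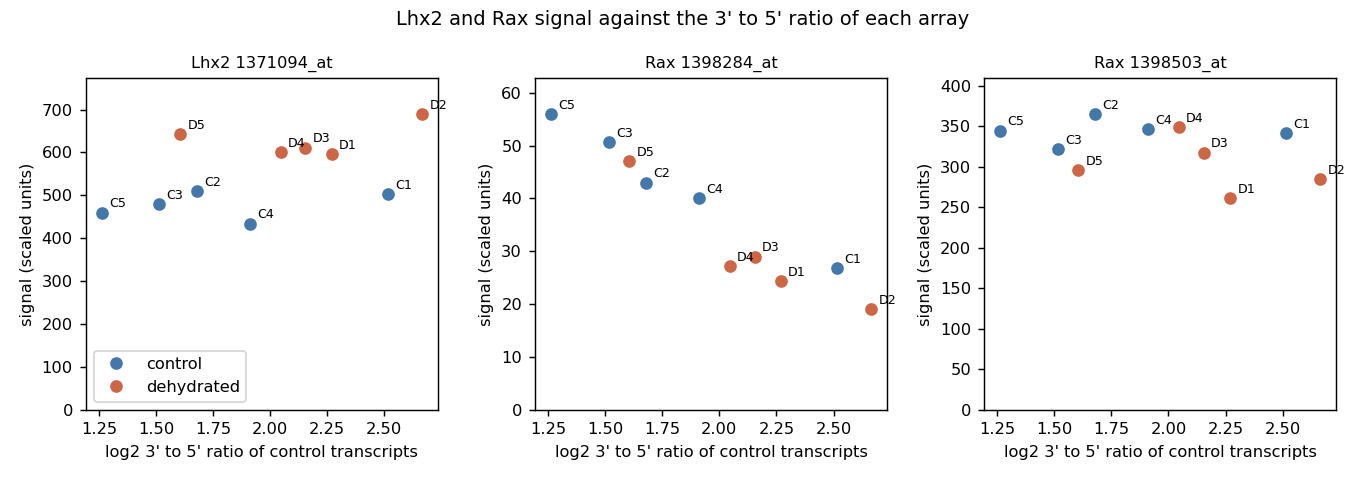
Signal in scaled units of Lhx2 and of both Rax probe sets against the log2 3' to 5' ratio of the control transcripts on each array (C, control; D, dehydrated; numbers follow the sample order within each group). The dim Rax probe set (middle) falls from 56.0 at the lowest ratio, control 5, to 19.0 at the highest, dehydrated 2, across both groups, while every dehydrated array is above every control array for Lhx2 (left); both groups are present only at ratios from 1.61 to 2.52.

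The dim Rax probe set moved with the 3' to 5' ratio in both groups. Its highest dehydrated signal came from the dehydrated array with the lowest 3' to 5' ratio (dehydrated 5, 1.61), and its lowest control signal from the control array with the highest ratio (control 1, 2.52). Over 10 arrays the correlation with the ratio was r = -0.96 (Spearman rho = -0.98), r = -0.97 with group means taken off, and r = -0.92 over 8 arrays without dehydrated 2 and control 5. A size of r of at least 0.9 was seen in 284 of the 18625 tested probe sets (1.52%). With the ratio as a covariate the change of this probe set was -0.19 (limma adjusted p = 0.679). Without dehydrated 5 and control 1 together it was -0.81 (adjusted p = 0.0143), in a fit in which 7.51% of all probe sets passed. These are the arrays that lay in the range of the other group for this probe set. Leaving them out had to separate the groups, at 19.0 to 29.0 with dehydration and 40 to 56.0 without, so that this fit is no test of the change. For the bright Rax probe set the same correlation was r = -0.39, and its change was -0.18 with the covariate (adjusted p = 0.425) and -0.19 without the 2 arrays (adjusted p = 0.258). The change of Lhx2 was 0.37 with the covariate (adjusted p = 0.0152) and 0.40 without the 2 arrays (adjusted p = 0.00853), and r with the ratio was 0.51 (0.12 over the 8 arrays). These relations were chosen for print after their values were seen.

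Nkx2-1, a homeodomain factor of the ventral forebrain, thyroid and lung (Entrez Gene 25628, probe set 1371010_at), gave 223.2, 143.5, 218.9, 180.2 and 161.5 on the dehydrated and 196.6, 180.8, 139.7, 163.2 and 120.3 on the control arrays 1 to 5. Dehydrated 1 and 3 were above all control arrays, and the rest overlapped. The log2 change was 0.21 ± 0.14 SE (95% interval -0.092 to 0.51, limma adjusted p = 0.477), and it was 0.14 without dehydrated 1, 0.11 without control 5 and 0.10 in the fit that includes the integrity ratio. Tbx3, a T-box repressor needed in the ventral hypothalamus (Entrez Gene 353305), had 4 probe sets, of which 2 were tested. Probe set 1393160_at gave 155.0, 127.3, 166.2, 130.6 and 178.1 on the dehydrated and 128.7, 108.9, 110.2, 111.1 and 134.1 on the control arrays. Dehydrated 1, 3 and 5 were above all controls. Its log2 change was 0.33 ± 0.11 SE (95% interval 0.10 to 0.57, adjusted p = 0.124), the largest after Lhx2 among the positive changes, and it did not pass under any of 22 alternatives (lowest adjusted p = 0.0855, without 1 array). Probe set 1390627_a_at gave 69.4 to 85.3 and 57.9 to 90.1, with a log2 change of 0.077 ± 0.13 SE (adjusted p = 0.814), so that the Tbx3 probe sets did not both show the difference. Leaving out single arrays gave 0.0068 (control 1) to 0.16 (control 5) for the latter. The 2 dim Tbx3 probe sets, 1377230_at and 1381464_at, stood at 2.1 to 15.0 and 6.4 to 15.7 with dehydration and at 0.9 to 21.8 and 6.6 to 19.1 in controls. The platform annotation gives 1377230_at and 1390627_a_at the same sequence accession, although only the latter was bright enough to be tested.

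Sox2, the HMG-box factor of neural progenitors and many glia (Entrez Gene 499593), also had 4 probe sets. The brightest, 1379942_at, gave 823.3, 714.6, 840.6, 734.9 and 718.4 on the dehydrated and 753.6, 819.5, 744.7, 675.8 and 660.4 on the control arrays 1 to 5. The groups overlapped widely. The log2 change was 0.069 ± 0.077 SE (limma adjusted p = 0.697), and its 95% interval, -0.095 to 0.23, holds no change as large as the 0.39 measured for Lhx2. Probe set 1381874_at gave 49.0, 64.9, 82.0, 43.5 and 76.4 and then 66.6, 73.6, 65.3, 63.2 and 73.8. Its spread was larger in the dehydrated group (coefficient of variation 26.5%, against 7.15%), a difference that was not tested, and its log2 change was -0.14 ± 0.16 SE (adjusted p = 0.687). With single arrays left out the change ranged from 0.034 (control 5) to 0.11 (control 2) for the first and from -0.24 (dehydrated 3) to -0.029 (dehydrated 4) for the second. The 2 tested Sox2 probe sets correlated at r = 0.093 with group means taken off. The other 2 were dim, with 3.9 to 19.1 for 1375153_at and 0.4 to 1.3 for 1389826_at over all 10 arrays.

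Hes1, a basic helix-loop-helix repressor switched on by Notch (Entrez Gene 29577, probe set 1387036_at), gave 314.6, 382.8, 286.1, 292.7 and 223.8 on the dehydrated and 274.4, 339.5, 269.0, 225.2 and 231.4 on the control arrays 1 to 5. Dehydrated 2 was the highest of all arrays and dehydrated 5 the lowest. The log2 change was 0.16 ± 0.13 SE (95% interval -0.12 to 0.43, limma adjusted p = 0.578). It was 0.063 without dehydrated 2, 0.25 without dehydrated 5, 0.24 without control 2, 0.098 without control 4 and 0.036 in the fit that includes the integrity ratio (r with the ratio 0.61, and 0.24 over 8 arrays without dehydrated 2 and control 5). The window upstream of Hes1 is shown because this gene is the textbook target of Notch, whose pathway was measured beside it. It covers 250 bases at chr11:84213046-84213295 of GRCr8, minus strand, from RefSeq, written along the gene. Capitals mark the core TGGGAA bound by RBPJ, the DNA-binding partner of Notch, and the N-box CACNAG bound by HES proteins, each on either strand.
Hes1: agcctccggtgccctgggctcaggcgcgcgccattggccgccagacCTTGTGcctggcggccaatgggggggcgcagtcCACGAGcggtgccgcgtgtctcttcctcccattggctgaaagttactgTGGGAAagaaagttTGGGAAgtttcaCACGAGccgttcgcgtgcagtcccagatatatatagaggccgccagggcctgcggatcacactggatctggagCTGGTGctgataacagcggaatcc
There were 2 RBPJ cores and 4 N-boxes, none overlapping another. Of all RefSeq windows, 22.1% held an RBPJ core and 2.71% at least 2, while 37.2% held an N-box and 0.197% at least 4. No RBPJ core was found in the windows of the other 6 factors matched.

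In the Notch pathway, 25 of 38 listed genes were tested, and none passed in limma in either direction, where 3.19% of 10593 genes read by 1 probe set each passed; 1 had an unadjusted p under 0.05, beside 17.4% of all tested probe sets. The median log2 change was 0.052, beside 0.0073 over all these genes, and all changes lay between -0.26 and 0.25. Among ligands, Jag1 changed by 0.25 (adjusted p = 0.422). Among receptors and their partners, Notch1 changed by 0.037 and Rbpj by 0.057 (adjusted p = 0.885 and 0.731). Among targets, the repressor gene Hey2 had the smallest p of the list, with a signal of 161 ± 12.0 in controls and 134 ± 12.1 after dehydration (SD, n = 5; log2 change -0.26 ± 0.091 SE, adjusted p = 0.153), while its relative Hey1 changed by 0.015 (adjusted p = 0.967).

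Six6 and Six3 are homeodomain factors of the sine oculis family (Entrez Gene 314221 and 78974). Six6, on probe set 1382687_at, gave 724.2, 811.6, 681.5, 591.7 and 550.3 on the dehydrated and 663.8, 602.1, 585.7, 677.3 and 573.3 on the control arrays 1 to 5. The dehydrated arrays spread from below to above all the controls, and the log2 change was 0.10 ± 0.097 SE (95% interval -0.10 to 0.31, limma adjusted p = 0.629). Its correlation with the 3' to 5' ratio was r = 0.84 over 10 arrays (Spearman rho = 0.84; r = 0.74 over 8 arrays without dehydrated 2 and control 5), opposite in sign to that of the dim Rax probe set, and with the ratio as a covariate the change was -0.020 (adjusted p = 0.953). It was 0.032 without dehydrated 2 and 0.17 without dehydrated 5. Six3, on probe set 1369028_at, was near the lower end of what was tested, with 35.7, 13.9, 34.1, 26.9 and 26.8 on the dehydrated and 34.1, 23.5, 35.9, 38.0 and 46.5 on the control arrays. Dehydrated 2 alone was below all controls. The log2 change was -0.35 ± 0.21 SE (adjusted p = 0.432), with a 95% interval of -0.80 to 0.11, and it was -0.16 without dehydrated 2 and -0.22 with the ratio as a covariate. This interval overlaps that of Six6; the difference between the 2 genes was not tested. A part of both upstream windows is shown because it holds their longest common run, 12 letters, in capitals; the Six3 stretch is chr6:14796378-14796449, minus strand, and the Six6 stretch chr6:97370321-97370392, plus strand, both of GRCr8 and from RefSeq.
Six3: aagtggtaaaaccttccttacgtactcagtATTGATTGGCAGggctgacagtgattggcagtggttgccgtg
Six6: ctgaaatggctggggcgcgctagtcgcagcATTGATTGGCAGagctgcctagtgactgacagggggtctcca
The run begins 163 bases before the start of Six3 and 84 before that of Six6, and it was found in 5 of 33469 windows, these included. It contains a CCAAT box (CCAAT, here on the opposite strand), which 34.0% of all windows hold on either strand; the whole windows held 3 for Six3 and 2 for Six6.

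**Figure D4:**
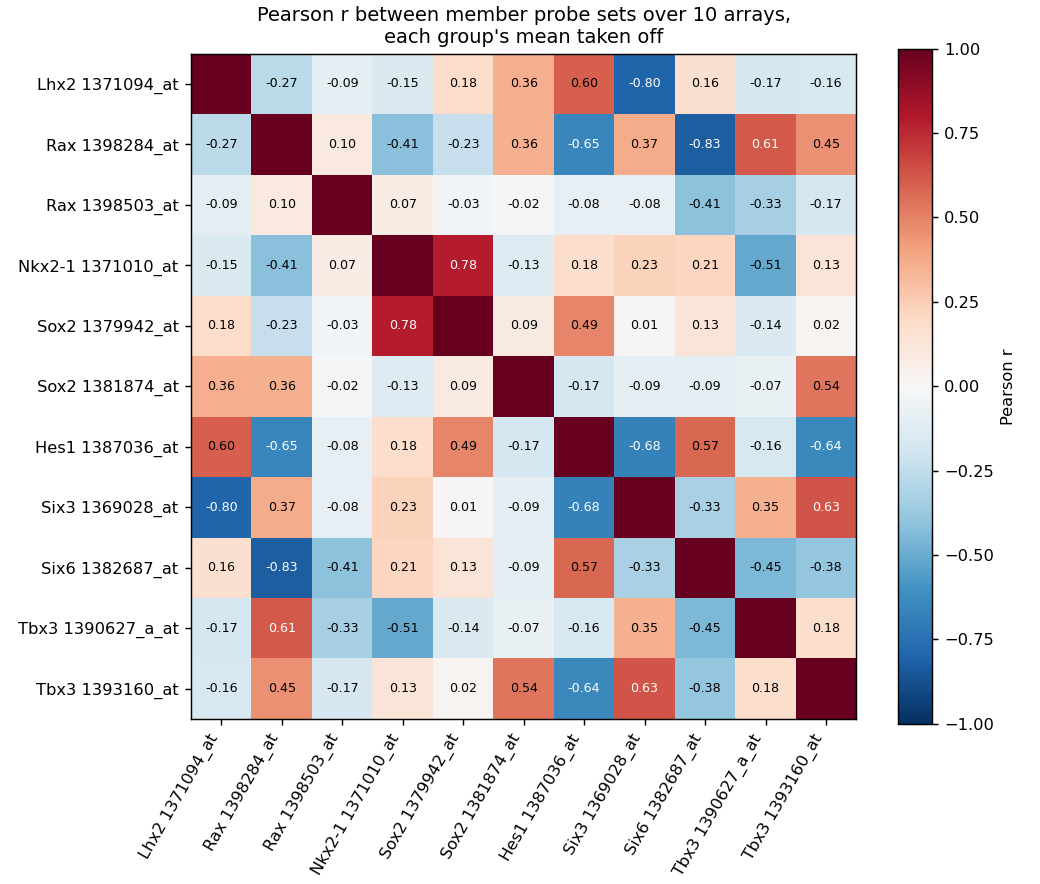
Pearson r between the 11 tested member probe sets over 10 arrays, with each group's mean taken off; red is positive and blue negative, and the number in each square is r. The highest value is that of Nkx2-1 with Sox2 1379942_at (0.78) and the lowest that of Rax 1398284_at with Six6 (-0.83), and probe sets of 1 gene are no closer to each other than 0.18.

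Over the 55 pairs of tested probe sets the median r with group means taken off was -0.071, and the range was -0.83 to 0.78. The highest r joined Nkx2-1 and Sox2 1379942_at (0.78), the only pair above 0.7. The pairs below -0.7 were Rax 1398284_at with Six6 (-0.83) and Lhx2 with Six3 (-0.80). Both members of the first of these pairs moved with the 3' to 5' ratio, as given above. Lhx2 with Hes1 gave r = 0.60. Between probe sets of the same gene, r was 0.093 for Sox2, 0.096 for Rax and 0.18 for Tbx3. All these values describe the same 10 arrays, which share scaling and RNA integrity.

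Genes related to the factors were read from lists by 1 probe set per gene, beside 3.19% of 10593 genes that passed, 2.31% higher and 0.878% lower. Of 21 tested pituicyte and astroglial genes, 3 rose and none fell: Galp, which encodes galanin-like peptide, Gfap, the astroglial intermediate filament, and Slc1a3, a glutamate transporter. Galp went from 24.7 ± 5.60 to 228 ± 53.9 and Gfap from 71.2 ± 21.3 to 395 ± 121 (SD, n = 5; log2 change 2.96 and 2.38, limma adjusted p = 8.61e-08 and 5.30e-06). Slc1a3 went from 1016 ± 73.5 to 1301 ± 38.7 (log2 change 0.36, adjusted p = 0.00694), close in size to the change of Lhx2, but it no longer passed with all its probe sets averaged (0.038, adjusted p = 0.903) or with no intensity trend (adjusted p = 0.0509). The median of the list was 0.027, and the other 18 did not pass.

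**Figure D5:**
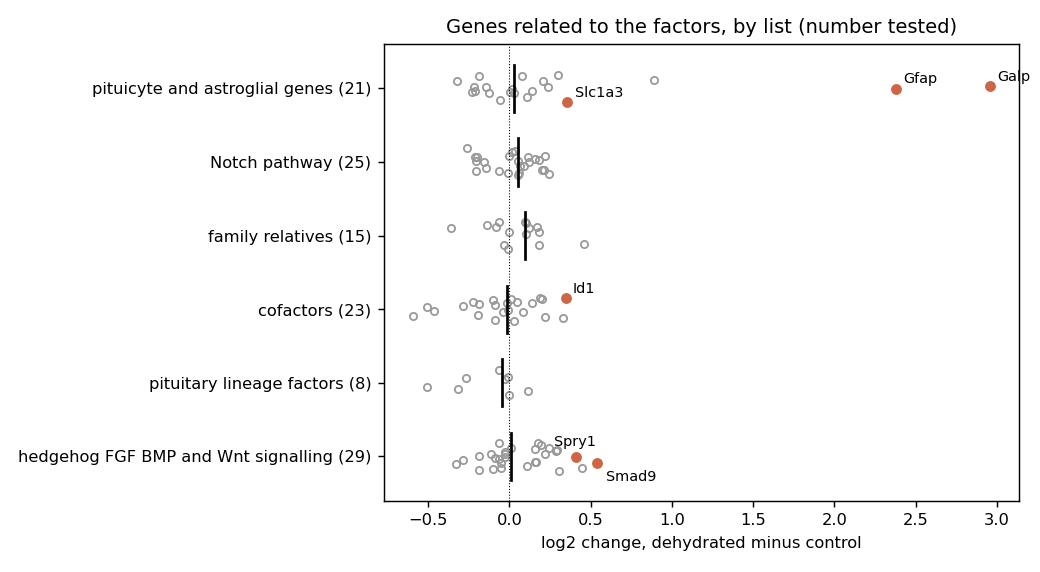
Log2 change, dehydrated minus control, of the tested genes of 6 lists (number tested in parentheses), 1 point per gene; filled orange points passed an adjusted p of 0.05 and carry a name, and black bars are list medians. The medians lie between -0.044 and 0.093, and Galp and Gfap stand apart at 2.96 and 2.38.

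Among 15 tested family relatives, SOX, LIM homeodomain, sine oculis, HES and T-box factors, none passed in limma, 2 had an unadjusted p under 0.05, and the median was 0.093. Sox13 had the smallest p, with 60.6 ± 6.93 in controls and 85.8 ± 14.7 after dehydration (SD, n = 5; log2 change 0.46, adjusted p = 0.0743); it passed without dehydrated 4 (adjusted p = 0.0308) and with arrays centred on their median (adjusted p = 0.0422). With the integrity ratio as covariate the change of Sox13 was 0.38 (limma adjusted p = 0.212). Of 23 tested cofactors 1 rose, Id1, an inhibitor of basic helix-loop-helix factors. It went from 199 ± 17.9 to 254 ± 12.0 with no overlap (SD, n = 5; log2 change 0.35, adjusted p = 0.0319). Id1 no longer passed when dehydrated 1, 2, 3 or 4 or control 1, 3 or 4 was left out or in the model with no intensity trend (adjusted p up to 0.0892). Its relatives in the list, Id2 and Id3, had larger negative changes, -0.59 and -0.51, that did not pass (adjusted p = 0.100 and 0.108). The median of the cofactors was -0.012, and without dehydrated 5 the number called was 3.

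Of 29 tested genes of hedgehog, FGF, BMP and Wnt signalling, which pattern the infundibulum, 2 rose and none fell, and the median was 0.010. Spry1, a feedback inhibitor of FGF receptor signalling, went from 184 ± 15.4 to 246 ± 20.7 (SD, n = 5; log2 change 0.41, limma adjusted p = 0.0179), and Smad9, a transducer of BMP signals, from 41.2 ± 2.99 to 62.7 ± 10.1 (log2 change 0.54, adjusted p = 0.0408). Spry1 no longer passed when dehydrated 3 or control 3 was left out, with the integrity ratio as covariate or with no intensity trend (adjusted p up to 0.0648). Smad9 no longer passed when dehydrated 1, 2 or 3 or any one of the 5 control arrays was left out, with the covariate, or with dim probe sets included (adjusted p up to 0.119). The number called in this list was 5 without dehydrated 5 and control 1 together and 0 without dehydrated 3, without control 3 or with the covariate. Of 8 tested pituitary lineage factors none passed in limma, and 1 had an unadjusted p under 0.05. That was Pitx1, a factor of the oral ectoderm lobes, with 116 ± 20.8 in controls and 82.4 ± 27.3 after dehydration (SD, n = 5; log2 change -0.51, adjusted p = 0.145). Pitx1 passed without dehydrated 5 (-0.67, adjusted p = 0.0108) and without dehydrated 5 and control 1 together (-0.74, adjusted p = 0.00765). In these fits 6.21% and 7.51% of all probe sets passed. The change of Pitx1 was -0.34 with the integrity ratio as covariate (adjusted p = 0.403) and -0.40 without dehydrated 3 (adjusted p = 0.321). The T-box factor of melanotrophs, Tbx19, changed by -0.0085 (adjusted p = 0.974), and the median of the list was -0.044.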

How the data were processed

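Per the labels, RNA of 10 pools was amplified and hybridised to 10 arrays. The authors deposited 1 linear intensity per probe set and array; GCOS 1.2 is named in the submitters' processing notes, and its algorithm and scaling are not given in the sources used here. Means trimmed by 2% at each end were about 100 on every array, so no scaling was added. Intensities became log2(signal + 5), the brightest 60% by mean over all arrays were kept (18625, without 57 controls), and a linear model per probe set with moderated variance and intensity trend was fitted in limma 3.58.1 under R 4.3.3, two-sided and Benjamini-Hochberg adjusted over everything kept. Fold changes are on the log2(signal + 5) scale and understate those of dim probe sets. Of 31042 probe sets, 20826 had 1 symbol, 436 several and 9780 none; a list gene was read by its brightest kept probe set. Members, lists and alternatives were chosen with earlier results of these data known. Named were all members, per list up to 4 called genes or the one of smallest p, and the 5 genes most correlated with a called member; Jag1, Notch1, Rbpj, Hey1, Tbx19 and Crym were added after their values were seen. Correlations carry no p-value. Alternatives changed pseudocount, scaling, filter, variance model, covariate, arrays and probe sets. Detection calls were not used here, so signal over background is unknown. On simulated data with 18625 probe sets, 0% of log2 changes of 0.25, 58% of 0.5 and 92% of 1 were recovered.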

Additional observations from a re-analysis of the deposited data

Results flagged for a closer look

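Of 60 sets of 5 arrays examined, 1 had an array far from the others, and chance alone marks about 1 in 20. The signal of Mrpl48, one of the genes most like Lhx2, was 657.1 on dehydrated 2 and 496.5 to 532.0 on the other dehydrated arrays. Dehydrated 2 also had the highest Lhx2 signal (689.8) and the highest 3' to 5' ratio (2.67).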

How the results depend on the processing

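Among the 11 member probe sets, 1 passed in each fit with a single choice changed or a single array left out (range 1 to 1). Without dehydrated 5 and control 1 together 2 passed, Lhx2 and Rax 1398284_at. For this Rax probe set those arrays lay in the range of the other group, so that its passing there followed from the choice of arrays. With probe sets averaged, 1 member gene passed. Changes that turned direction without passing either way were those of Six6 in the fit that holds the integrity ratio as covariate (-0.020), Tbx3 1390627_a_at without dehydrated 5 and control 1 together (-0.0068) and Sox2 with probe sets averaged (-0.037); the cause was not tested. Over all probe sets the count of 458 was 240 without an intensity trend, 301 and 218 without dehydrated 1 and 3, 290, 288, 299 and 304 without control 2 to 5, 1156 without dehydrated 5 and 1398 without dehydrated 5 and control 1 together. Across alternatives the number called was 0 in the Notch pathway throughout, 2 to 4 among pituicyte and astroglial genes (3 in the report), 0 to 3 among cofactors (1), 0 to 2 among family relatives (0), 0 to 1 among lineage factors (0) and 0 to 5 in hedgehog, FGF, BMP and Wnt signalling (2). No paired analysis was possible because the labels give no replicate numbers that pair the groups. The 5 arrays per group limit the precision, and a dim member (Six3, Rax 1398284_at) could differ by the size of its interval.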
